A study of Mus musculus with 6 samples.

Results

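Stra8, Meioc, Ythdc2, Dazl and Zglp1 are genes that act when mouse germ cells leave mitosis and enter meiosis. All probe sets that the array platform's annotation assigns to 1 of these 5 symbols were taken, which gave 6 of 45101 probe sets, 2 for Dazl and 1 for each of the others, and 5 of the 18193 genes measured. Expression was measured once per group in ovary and testis of C57BL/6 mice, an inbred laboratory strain, before birth at 15.5 days postcoitum (here fetal), 1 day after birth (neonatal) and in 10-week-old adults. Each of the 6 groups has 1 array of whole-gonad RNA, and the sources used here do not say how many animals gave it. There is therefore no replicate error, no p-value was computed, and differences are described by their size.

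Entry into meiosis begins in the fetal ovary before birth and in the testis only after birth, where it then recurs throughout adult life. Retinoic acid and BMP signals act on germ cells that DAZL, an RNA-binding protein, has made competent to respond, and the cells then express STRA8, a transcription factor that works with its partner MEIOSIN to switch on genes of meiotic prophase. ZGLP1, a GATA-like zinc finger protein, acts downstream of BMP in the female germ line. MEIOC and the RNA helicase YTHDC2, which carries a YTH domain that binds N6-methyladenosine (m6A), form a complex that keeps germ cells in prophase by lowering mitotic messages such as that of cyclin A2.

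Values below are signals scaled to the same trimmed mean on all arrays. A floor was set at their median, 75.3, and lower values were raised to it, so values at the floor have no order among themselves and a ratio taken against one gives only the least size of the difference ("at least"). Calls needed a 4-fold difference in either direction. The sexes and ages were visible in markers of other cell types. All 12 spermatid genes of the list used here exceeded the floor in adult testis, while the remaining 5 arrays had 0 to 2 above it. Of the 12 oocyte genes, 11 and 12 were above it in neonatal and adult ovary and 1 to 5 elsewhere. Summed Sertoli cell signal was 8504 in fetal ovary and 24587 in fetal testis, and 10294 in neonatal ovary and 48398 in neonatal testis. The adult sums were closer, with 17523 in ovary and 21653 in testis, of which Clu alone had 10921 and 8784. Single genes differed in both directions, with 2 of 11 called higher in adult ovary and 3 lower. Over all genes 15.1% were called higher and 13.8% lower. Amh, a Sertoli cell hormone, was at the floor in fetal ovary with 2093 in fetal testis. Its adult direction was reversed, with 1197 in ovary, at least 15.9-fold above testis. Wt1, also on the Sertoli list, was higher in ovary in fetal (3289 against 2094) and neonatal gonads (3291 against 2206).

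**Figure D1:**
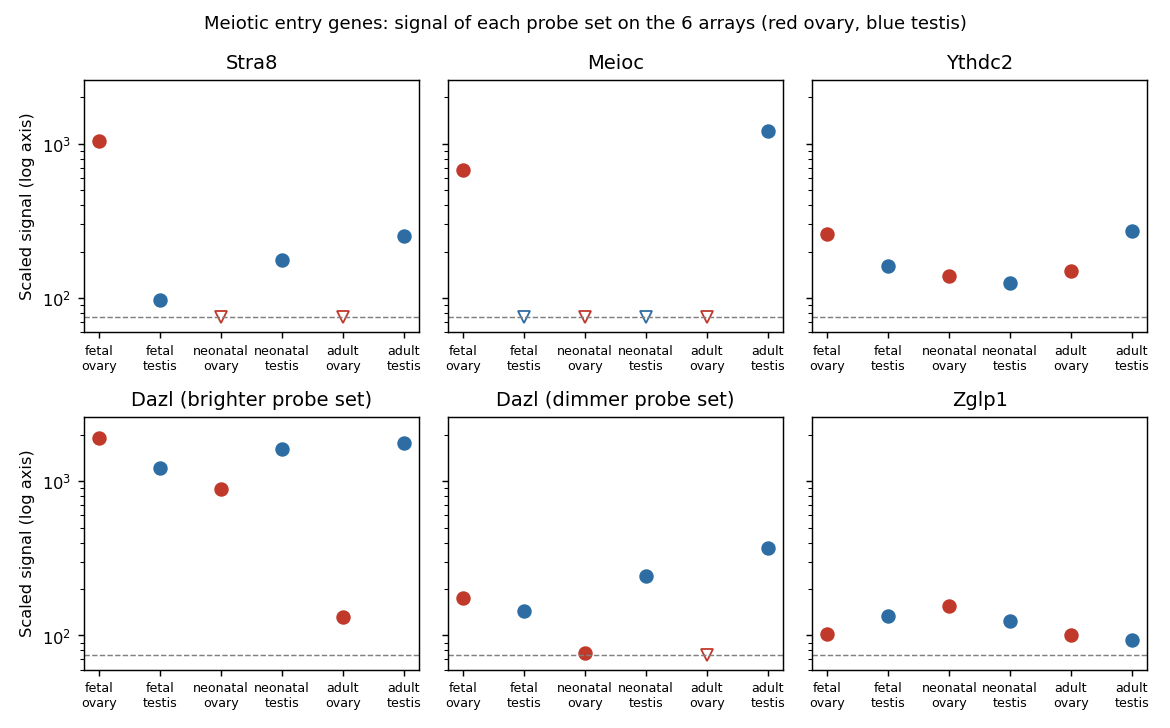
Scaled signal (log axis) of each of the 6 probe sets on the 6 arrays, ovary in red and testis in blue, with 1 point per array and the floor of 75.3 as a dashed line. Open triangles stand for arrays at the floor. Stra8 is highest in fetal ovary (1047), Meioc stands above the floor in fetal ovary (673) and adult testis (1217) only, Dazl is low in adult ovary on both probe sets, and Ythdc2 and Zglp1 stay between 94.0 and 271 throughout.

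Stra8, in fetal ovary, was 10.8-fold above fetal testis, and it was at the floor in the neonatal and adult ovary. Its signals were 1047 in fetal ovary and 96.8 in fetal testis. In neonatal ovary it was at the floor, with 178 in neonatal testis, and in adult ovary it was at the floor, with 253 in adult testis. Fetal ovary thus stood 4.14-fold above the next array, adult testis. Among the 11618 genes above the floor in both fetal gonads, Stra8 had the 3rd highest ratio of ovary to testis. The fetal testis value lay only slightly above the floor, at the percentile 54.2 of all probe sets on that array, against 89.5 in fetal ovary.

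Within the testes, Stra8 was 1.83-fold higher in neonatal than in fetal testis and 1.42-fold higher in adult than in neonatal testis, both below the limit of 4. As a yardstick for such small ratios, the technical spread was taken from pairs of probe sets of the same gene, as the robust SD of 1 log2 ratio. It was 0.22 for neonatal over fetal testis, against a log2 ratio of 0.87 for Stra8, and 0.57 for adult over neonatal testis, against 0.51. The step between adult and neonatal testis was therefore within this technical spread, which covers no variation between animals or arrays. It is 1 value per comparison over genes of all signals above the floor, and its size for signals near the floor was not examined.

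Meioc was above the floor in 2 of 6 arrays, fetal ovary with 673 and adult testis with 1217. In fetal testis, neonatal ovary, neonatal testis and adult ovary it was at the floor. Fetal ovary was at least 8.93-fold above fetal testis, and adult testis at least 16.2-fold above neonatal testis. Adult testis and fetal ovary differed 1.81-fold, which is 1.41 times the technical SD of that ratio.

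The promoter windows of Stra8, Meioc and Dazl are shown because the patterns of these genes differed. Stra8 and Meioc shared their high array in the fetal gonads, while Dazl, on its brighter probe set, was bright in 5 of 6 arrays. The windows run from 250 bases before to 50 after the annotated start in RefSeq on build GRCm38.p6 and are printed 5′ to 3′ on the gene's strand. Stra8 lies on chromosome 6 (chr6:34920698-34920997, plus strand), Meioc on chromosome 11 (chr11:102665335-102665634, plus strand) and Dazl on chromosome 17 (chr17:50293571-50293870, minus strand). Capitals mark AGGTCA, a hexamer bound by nuclear receptors, in Stra8, GCGGGA, the reverse strand of the E2F6-type motif TCCCGC, in Meioc, and a match to CNCCTCAG, the STRA8-MEIOSIN motif, in Dazl.
Stra8: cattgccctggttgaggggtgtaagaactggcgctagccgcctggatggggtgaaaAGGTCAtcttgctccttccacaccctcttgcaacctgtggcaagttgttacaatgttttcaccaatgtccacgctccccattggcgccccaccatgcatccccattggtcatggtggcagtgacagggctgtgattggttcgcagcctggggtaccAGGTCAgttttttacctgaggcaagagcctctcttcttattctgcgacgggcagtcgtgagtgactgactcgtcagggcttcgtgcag
Meioc: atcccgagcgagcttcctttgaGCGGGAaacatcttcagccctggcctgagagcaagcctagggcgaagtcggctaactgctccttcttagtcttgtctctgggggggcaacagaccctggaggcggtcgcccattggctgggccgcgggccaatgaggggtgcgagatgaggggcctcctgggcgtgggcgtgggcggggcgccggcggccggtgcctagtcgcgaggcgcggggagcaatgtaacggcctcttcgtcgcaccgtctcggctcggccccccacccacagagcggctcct
Dazl: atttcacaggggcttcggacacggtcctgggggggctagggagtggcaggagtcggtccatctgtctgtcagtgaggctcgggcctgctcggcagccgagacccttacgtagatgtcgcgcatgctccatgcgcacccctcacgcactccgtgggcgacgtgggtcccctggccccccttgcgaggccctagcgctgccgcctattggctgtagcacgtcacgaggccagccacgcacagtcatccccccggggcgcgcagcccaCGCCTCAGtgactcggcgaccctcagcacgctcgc

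The Stra8 window held AGGTCA at positions -194 and -38 from the start, both on the gene's strand. Of all 32851 windows in the table, 16.3% held AGGTCA on either strand and 1.81% held 2 or more. The match in Meioc began at position -228, and TCCCGC was found in 20.0% of all windows. The match in Dazl was at position 16 after the start, and CNCCTCAG was found in 7.94% of all windows. None of these matches overlapped another motif searched. The nuclear receptor hexamers AGTTCA (14.0% of all windows), GGGTCA (13.7% of all windows) and GGTTCA (10.4% of all windows) were in none of the 4 windows, which include that of Zglp1 on chromosome 9. Nor were the GATA motifs AGATAA (11.2% of all windows) and TGATAA (9.05% of all windows) or the cAMP response element TGACGTCA (1.79% of all windows), each searched on both strands. The Zglp1 window, not printed, held CACGTG at -125, a motif in 7.15% of all windows, and an overlapping AGGTCA on the opposite strand at -121. The Meioc and Dazl windows were richer in bases G and C (68.3% and 68.7%) than that of Stra8 (55.7%), with a median of 52.7% over all windows. They also held 28 CpG dinucleotides each, against 10 in the Stra8 window and a median of 7 over all windows. A match shows letters and not binding, and no window for Ythdc2 was used here.

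Ythdc2 had a much smaller range than Meioc, its partner in the complex. Its signals were 259 in fetal ovary and 160.5 in fetal testis, 139.6 in neonatal ovary and 124.5 in neonatal testis, and 149 in adult ovary and 271 in adult testis. The highest arrays were adult testis and fetal ovary, the same 2 in which Meioc was above the floor. The highest over the lowest array was 2.18-fold. Fetal ovary exceeded fetal testis 1.62-fold (log2 ratio 0.69, technical SD 0.16), and Ythdc2 was 2.18-fold higher in adult than in neonatal testis (log2 ratio 1.12, technical SD 0.57). Its probe set stood between the percentiles 60.3 and 74.2 of an array. Apart from fetal ovary against fetal testis, no neighbouring arrays in the order of its levels differed by more than 1 technical SD.

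On its brighter probe set, Dazl was bright in every gonad except the adult ovary. Its brighter probe set had signals of 1916 in fetal ovary and 1222 in fetal testis, 893 in neonatal ovary and 1615 in neonatal testis, and 132 in adult ovary and 1772 in adult testis. The lowest of the other 5 arrays, neonatal ovary, stood 6.79-fold above adult ovary. Fetal ovary, adult testis and neonatal testis followed each other with steps of 1.08-fold and 1.10-fold, below the technical SD. The brighter probe set was 2.15-fold lower in neonatal than in fetal ovary.

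The dimmer Dazl probe set had 176 in fetal ovary and 144 in fetal testis, 76.7 in neonatal ovary and 244 in neonatal testis. In adult ovary it did not exceed the floor, with 366 in adult testis. In the fetal gonads the ovary was higher on both probe sets, at 1.57-fold and 1.22-fold, and in the neonatal gonads it was lower on both, at 1.81-fold and 3.19-fold. Both were called lower in adult ovary than in adult testis, at 13.5-fold by the brighter and at least 4.86-fold by the dimmer. They differed for adult over neonatal ovary, where the brighter was 6.79-fold lower and the dimmer was near the floor on both arrays. Their highest array differed as well, being fetal ovary (1916) for the brighter and adult testis (366) for the dimmer.

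Zglp1 varied least of the 5 genes and was called in no comparison. Its signals were 103 in fetal ovary and 133 in fetal testis, 155 in neonatal ovary and 125 in neonatal testis, and 101 in adult ovary and 94.0 in adult testis. The highest over the lowest array was 1.65-fold, and the highest value stood 2.06-fold above the floor. In fetal ovary, where the female germ cells are in prophase, it was 1.29-fold lower than in fetal testis. The deposited values carry no call of presence, and the accession behind the Zglp1 probe set, like those for Meioc and Ythdc2, is no RefSeq transcript of the reference gene table, whereas those for Stra8 and Dazl are. Where in the transcript these 3 probe sets lie was not tested.

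**Figure D2:**
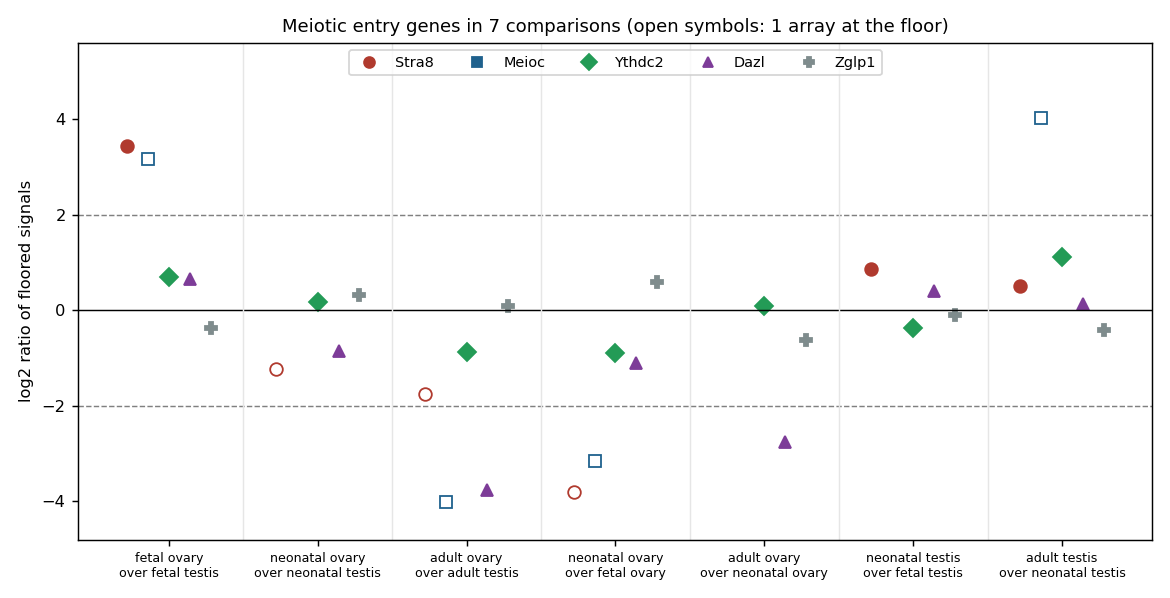
Log2 ratio of floored signals for the 5 genes in the 7 comparisons, 1 symbol per gene, with dashed lines at the limit of 4-fold in each direction. Open symbols are bounds with 1 array at the floor, and a gene at the floor on both arrays is not drawn. Stra8 and Meioc exceed 4-fold for fetal ovary over fetal testis and for neonatal over fetal ovary, Meioc and Dazl for adult ovary over adult testis, Dazl for adult over neonatal ovary, and Meioc for adult over neonatal testis.

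In the fetal gonads, 2 of 5 entry genes, Stra8 and Meioc, were called higher in ovary and none lower. Of the 12595 genes above the floor in fetal ovary or fetal testis, 0.278% were called higher in ovary and 0.635% lower. The median log2 ratio of the 5 genes was 0.69, against 0.02 over all these genes. Ddx4, an RNA helicase of germ cells in both sexes, had 1172 in fetal ovary and 1610 in fetal testis. Set beside Ddx4 on the same arrays, Stra8 was 14.9-fold and Meioc at least 12.3-fold higher in ovary. Scaling cancels in such a value where both genes lie above the floor, as for Stra8 here, but not in the bound for Meioc. Ythdc2 was 2.22-fold and Dazl 2.15-fold higher beside Ddx4. In these whole gonads, fewer germ cells and less RNA per germ cell cannot be told apart. Of 9 measured germ cell genes, 8 were above the floor on either array. Of these, Tdrd9 (at least 10.2-fold) and Gtsf1 (6.03-fold) were called lower in fetal ovary and none higher (median log2 ratio -1.06). Rnf17 was 1.98-fold and Mov10l1 1.05-fold higher, both uncalled, so the list was mixed in direction. All 5 measured Leydig cell genes and 5 of 11 Sertoli cell genes were called lower in ovary as well, and the part of these somatic cells in the entry genes' ratios was not tested.

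Genes of meiotic prophase went with Stra8 and Meioc in the fetal gonads. Of the 22 list genes above the floor, 11 were called higher in ovary and none lower, with a median log2 ratio of 1.99. Smc1b, a meiotic cohesin subunit, was 20.3-fold higher, Terb1, which attaches telomeres to the nuclear envelope, at least 9.97-fold, and Syce3 of the synaptonemal complex 8.38-fold. None of the 9 measured mitotic genes was called in either direction (median -0.21). Ccna2, which encodes cyclin A2, had 1386 in fetal ovary and 1726 in fetal testis, a 1.25-fold lower value in ovary. None of the 3 measured partners was called. Rbm46, an RNA-binding protein that works with MEIOC and YTHDC2, had 355 in ovary and 265 in testis, the exonuclease Xrn1 96.9 and 96.2, and the retinoblastoma gene Rb1, a partner of STRA8, 428 and 339.9. Meiosin was not measured by a probe set with its name.

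Among signals upstream of entry, none of 24 genes above the floor was called in either direction, with a median log2 ratio of 0.35. The most extreme were Cyp26b1, the enzyme that breaks down retinoic acid, at least 3.37-fold lower in fetal ovary, and the BMP ligand Bmp2, 3.10-fold higher. Cyp26b1 was at the floor in fetal ovary with 254 in fetal testis, and Bmp2 had 337 in ovary and 109 in testis. Crabp1, a retinoic acid binding protein, was 2.57-fold and Msx1, a BMP-induced homeobox gene, 2.23-fold higher in ovary. Of 8 measured genes listed as holding back entry in the testis, 7 were above the floor and 2 of them were called lower in ovary. Dnd1, an RNA-binding partner of NANOS2, had 159.6 in ovary and 1143 in testis (7.16-fold lower). Dmrt1, a transcription factor of germ and Sertoli cells, had 131 in ovary and 599.6 in testis (4.56-fold lower). A role of Dmrt1 in holding back entry at this age was not tested. Nanos2 itself is not analysed here. Of 13 repressors of meiotic genes in chromatin, 1 was called, Dnmt3l, at least 6.87-fold lower in ovary, and the E2F6 complex genes were not among the calls. None of the 12 m6A genes and none of the 7 DAZ family and partner genes was called.

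Stra8 and Meioc were at the floor in the ovary after birth. Both were called lower in neonatal than in fetal ovary and no entry gene was called higher, where 0.321% of 13086 genes were called lower and 1.05% higher. Stra8 was at the floor in neonatal ovary, against 1047 in fetal ovary, at least 13.9-fold lower, and Meioc was at least 8.93-fold lower. Beside Ddx4, which had 872 in neonatal ovary and 1172 in fetal ovary, Stra8 was still at least 10.3-fold and Meioc at least 6.65-fold lower. Dazl was 1.60-fold lower beside Ddx4. By their own signals Ythdc2 was 1.86-fold lower and Zglp1 1.51-fold higher. Of the 22 prophase genes above the floor, 9 were called lower in neonatal ovary and none higher, with a median log2 ratio of -1.26. Tex12 and Sycp2 of the synaptonemal complex were 6.96-fold and 6.31-fold lower, and Hormad1 of the chromosome axis at least 6.30-fold. Sycp3, whose message DAZL binds, had 3051 in neonatal ovary and 3715 in fetal ovary. On the oocyte list 9 of 11 genes above the floor were called higher in neonatal ovary. Of the 9 germ cell genes 3 were called higher and none lower, namely Gtsf1 (16.3-fold), Tdrd9 (at least 14.2-fold) and Piwil2 (5.15-fold), which act in the piRNA pathway. Rnf17, on the same list, was 2.94-fold lower in neonatal ovary. The ratio of 3′ to 5′ signal of the Gapdh control, a measure of RNA integrity, was 3.12 in neonatal ovary and 1.45 in fetal ovary. That of the Actb control was 3.28 in neonatal ovary and 3.78 in fetal ovary, the opposite order, and the part of RNA quality in these differences was not tested.

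In the neonatal gonads no entry gene was called in either direction, against 1.94% of 13119 genes higher in ovary and 1.33% lower. Stra8 was lower in neonatal ovary, by at least 2.36-fold, and Dazl 1.81-fold lower. Ddx4 had 872 in neonatal ovary and 1206 in neonatal testis. Beside Ddx4, Stra8 was at least 1.70-fold and Dazl 1.31-fold lower in ovary, and Ythdc2 1.55-fold and Zglp1 1.72-fold higher. Meioc was at the floor in both gonads. Ythdc2 and Zglp1 were 1.12-fold and 1.24-fold higher in ovary (for Ythdc2 the direction turned under another scaling), with log2 ratios of 0.16 and 0.31 and a technical SD of 0.28. Called differences in prophase genes lay in the other direction from Stra8, with 4 of 18 genes above the floor higher in ovary (Sycp3, Syce1, Rec8 and Smc1b) and none lower. The 3′ to 5′ ratio of Gapdh was 3.12 in neonatal ovary and 1.43 in neonatal testis. That of Actb was 3.28 in neonatal ovary and 2.91 in neonatal testis, and the part of RNA quality was not tested.

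In the testis between fetal life and birth, no entry gene was called either, against 0.513% of 12669 genes higher in neonatal testis and 0.631% lower. Stra8 was 1.83-fold higher in neonatal testis. Dazl was 1.32-fold higher by its brighter probe set, Ythdc2 1.29-fold lower and Zglp1 1.06-fold lower (a direction that turned under another scaling). Each of these 3 differences was smaller than 2 technical SDs. By the dimmer probe set Dazl was 1.69-fold higher, with a log2 ratio of 0.76 and a technical SD of 0.22. None of 17 prophase genes above the floor was called, with a median log2 ratio of 0.02.

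In adult testis, Meioc was the 1 entry gene called higher than in neonatal testis, and none was called lower. This background was broad, with 13.7% of 14198 genes called higher in adult testis and 13.2% lower, so the count of 1 of 5 is close to the share of all genes. Meioc was at least 16.2-fold higher, Ythdc2 2.18-fold, Stra8 1.42-fold and Dazl 1.10-fold. The 3′ to 5′ ratio of Gapdh was 2.36 in adult testis and 1.43 in neonatal testis, and that of Actb 1.81 in adult testis and 2.91 in neonatal testis, and their part in these values was not tested. Ddx4 was 3.47-fold higher, with 4181 in adult testis and 1206 in neonatal testis. Beside Ddx4, Meioc in adult testis was higher by at least 4.66-fold, whereas Stra8 was 2.43-fold, Dazl 3.16-fold and Ythdc2 1.59-fold lower. Summed signal of the 12 spermatid genes was 88254 in adult testis and 426 in neonatal testis, and the part of these later cells in the entry genes' values was not tested. With arrays scaled to the hybridization controls, Stra8 and Ythdc2 were called higher too.

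**Figure D3:**
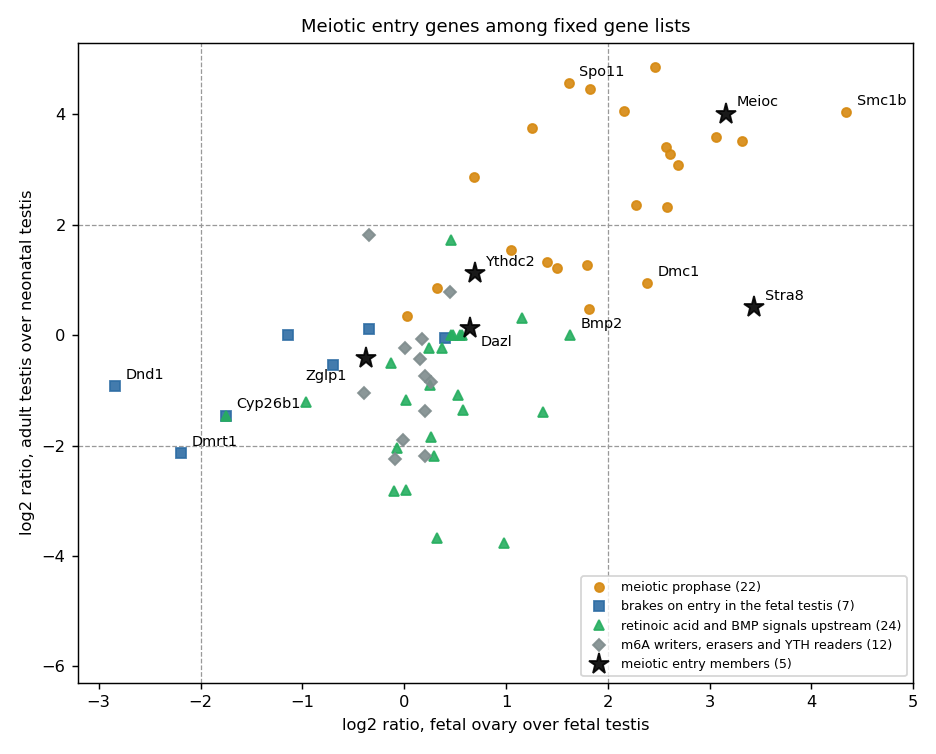
Log2 ratio for fetal ovary over fetal testis (horizontal) against that for adult over neonatal testis (vertical) for genes of 5 lists, 1 symbol per gene, with dashed lines at 4-fold. The 2 ratios share no array, no gene is drawn whose 4 signals lay at the floor, and ratios against the floor are drawn at their bound. Meioc lies among the prophase genes at the upper right, Stra8 lies to the right near no change in the testis (log2 3.43 and 0.51), and Ythdc2, Dazl and Zglp1 lie near the centre.

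In the same comparison 14 of 22 prophase genes above the floor were called higher in adult testis and none lower, with a median log2 ratio of 2.97. Syce1 and Sycp2 were 29.1-fold and 22.1-fold higher, and Spo11, the enzyme that cuts DNA in meiosis, 23.7-fold. Among the entry genes only Meioc shared this size of change, and Stra8 did not. Rbm46, the RNA-binding partner of MEIOC and YTHDC2, had 830 in adult testis and 247 in neonatal testis, 3.36-fold higher. Boll, a relative of DAZL, had 1283 in adult testis and was at the floor in neonatal testis, at least 17.04-fold higher. The other call among the 7 DAZ family and partner genes was Pabpc4, a poly(A)-binding protein, with 159 in adult testis and 2034 in neonatal testis, 12.8-fold lower. Ccna2 was 10.4-fold lower in adult testis (181 against 1895) and Mki67, a proliferation marker, 5.24-fold lower. These 2 were the called genes among 9 mitotic genes, whose median log2 ratio was -0.43. The next most extreme were Aurka, 3.29-fold higher in adult testis, and Cdk1, 3.03-fold lower, so the list did not move in 1 direction. Among upstream signals 6 of 19 genes above the floor were called lower and none higher, led by the BMP targets Id2 (at least 13.7-fold) and Id1 (at least 12.8-fold). Ythdf1 and Ythdf3, other YTH proteins, were 4.74-fold and 4.54-fold lower, the 2 called genes of 12 m6A genes. E2f6, a repressor of meiotic genes in mitotic cells, had 92.6 in adult testis and 1212 in neonatal testis, 13.1-fold lower, the 1 called gene of 13 repressors. Over all genes 13.7% were called higher and 13.2% lower. The counts for the mitotic, DAZ family, m6A and repressor lists are therefore close to what these shares give for lists so short.

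Between adult gonads, Meioc and Dazl were called lower in ovary and no entry gene was called higher. Of 14349 genes, 13.8% were called lower in ovary and 15.1% higher. Meioc was at least 16.2-fold lower in adult ovary and Dazl 13.5-fold. Stra8 was at least 3.36-fold and Ythdc2 1.82-fold lower, and Zglp1 1.07-fold higher, a direction that turned under another scaling. Ddx4 had 107 in adult ovary and 4181 in adult testis, the first value lying near the floor. Beside Ddx4, which was 39.0-fold lower in ovary, Dazl was 2.90-fold, Ythdc2 21.4-fold and Zglp1 41.7-fold higher. These folds follow the low Ddx4 value, since by their own signals Dazl and Ythdc2 were lower in ovary and Zglp1 was nearly equal. Whether the Ythdc2 and Zglp1 signals come from germ cells was not tested. For Meioc and Stra8, at the floor in adult ovary, no direction beside Ddx4 can be given. Of 9 germ cell genes 8 were called lower in ovary, and of 22 prophase genes above the floor 16 were, with none higher on either list. The 3′ to 5′ ratio of Gapdh was 1.32 in adult ovary and 2.36 in adult testis. That of Actb was 2.91 in adult ovary and 1.81 in adult testis, and the part of RNA quality was not tested.

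Within the ovary after birth, Dazl was the 1 entry gene called, at 6.79-fold lower in adult than in neonatal ovary, while 2.59% of 13261 genes were called lower and 2.04% higher. Its log2 ratio was -2.76, and that of Ddx4 -3.02. This call rests on the brighter Dazl probe set, since the dimmer had only 76.7 in neonatal ovary and was at the floor in adult ovary. Of 9 germ cell genes 6 were called lower in adult ovary and none higher (median -3.63). Stra8 and Meioc were at the floor on both arrays, Ythdc2 was 1.07-fold higher in adult ovary, a direction that turned under another scaling, and Zglp1 1.54-fold lower. The 3′ to 5′ ratio of Gapdh was 1.32 in adult ovary and 3.12 in neonatal ovary. That of Actb was 2.91 in adult ovary and 3.28 in neonatal ovary, and the part of RNA quality was not tested.

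The 5 genes differed in how alike their profiles were over the 6 arrays. As a description, Meioc and Ythdc2 had r = 0.963 between their log2 floored signals, Stra8 and Meioc 0.767, and Stra8 and Dazl 0.598, over 6 arrays that all genes share, with 4 of the 6 Meioc values at the floor. For each gene, the 3 most similar profiles were sought among 11295 genes that reached 4 times the floor on at least 1 array, by the root mean square (RMS) difference of log2 signals centred on their mean. Nearest to Stra8 were 4930447C04Rik, known also as Six6os1 and encoding a synaptonemal complex protein (RMS 0.44), Ugt8a, a glycolipid enzyme (0.45), and Dmc1, the meiotic recombinase (0.56). Nearest to Meioc were M1ap (0.20), Hormad1 (0.35) and Spdya (0.35), of which M1ap had 934 in fetal ovary, 1086 in adult testis and floor values elsewhere.

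Nearest to Dazl were Slc25a31, the germ cell carrier of ADP and ATP (RMS 0.33), Gfra2 (0.48) and Gpat2 (0.49), which each were at the floor in adult ovary. Nearest to Ythdc2 were Rbm15, a member of the m6A writer complex (0.13), Tcaim (0.13) and Zfp672 (0.13). Nearest to Zglp1 were Galnt18 (0.10), Wdsub1 (0.10) and Pak1ip1 (0.11). Distances for Ythdc2 and Zglp1 are small because both profiles are nearly flat.

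**Figure D4:**
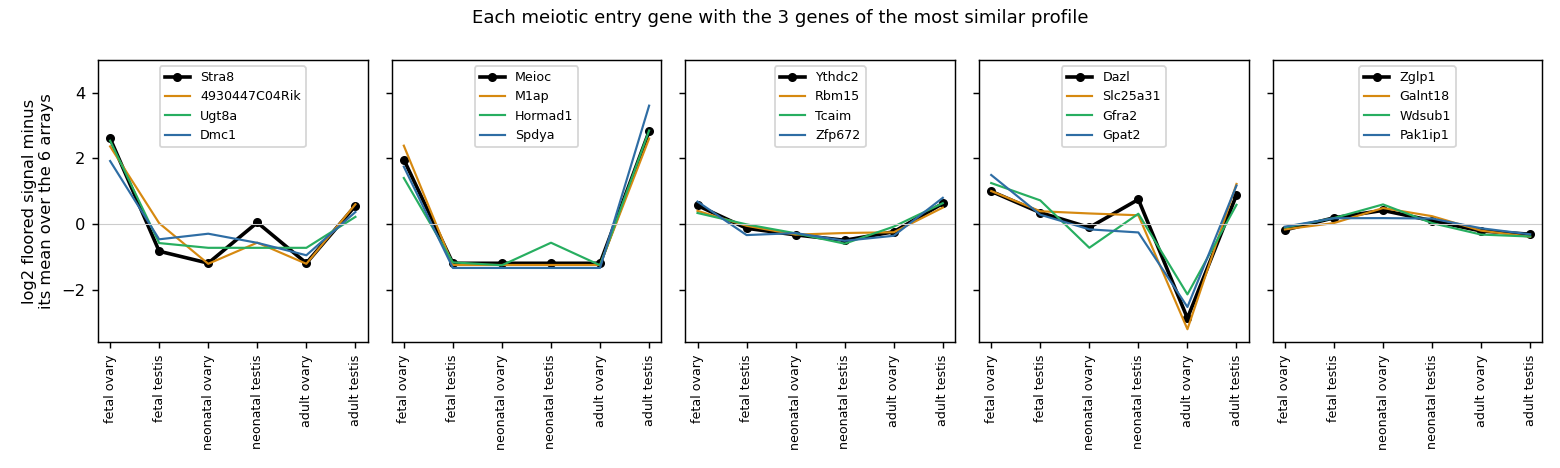
Log2 floored signal minus its mean over the 6 arrays (vertical) on each array (horizontal), for each entry gene in black and the 3 genes with the most similar profile in colour, 1 panel per gene. Stra8 peaks in fetal ovary, Meioc in fetal ovary and adult testis, Dazl dips in adult ovary, and Ythdc2 and Zglp1 stay near their mean throughout.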

How the data were processed

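Total RNA of 6 gonad samples was hybridized to Affymetrix arrays, with 1 array per group. The authors' deposited table holds 1 intensity value per probe set on a linear scale, with a lowest value of 1. The submitters' processing notes name GCOS version 1, and for background correction, probe summary and scaling no method is given in the sources used here. The 2% trimmed means of the deposited arrays lay between 256 and 353, and their medians between 64.1 and 82.5, so each array was multiplied by 1 factor (0.913 to 1.26) to the same trimmed mean. The floor is the median of all scaled signals, 75.3.

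Genes were named through the platform annotation, using the 34945 probe sets with 1 symbol. Each of 18193 genes was represented by its brightest probe set on average. The 7 comparisons, called at 4-fold, were run on all genes, and shares were taken over genes above the floor on at least 1 of both arrays. List medians use the same genes. The technical SD of a log2 ratio comes from the 2 brightest probe sets of a gene, where both were above the floor on both arrays. Motifs were searched in RefSeq promoter windows, of which 4 of the 5 genes had 1. All 21 gene lists (215 genes, 201 measured) were written with earlier results of these data known, and so were the 5 genes chosen. Named are the 5 genes, the partners, markers, up to 4 of the most extreme genes of another list and the 3 most similar profiles. Alternatives were 4 other scalings, 2 other floors, 16 added in place of a floor, the mean of all probe sets, leaving out cross-hybridizing probe sets, and limits of 2 and 8. The steps were tested on simulated arrays. Known folds were added there only to genes above 4 times the floor, so differences near the floor were not covered. Python 3.11.15, numpy 2.4.6 and pandas 2.3.3 were used. The number of arrays limits the precision.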

Additional observations from a re-analysis of the deposited data

Results flagged for a closer look

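For 3 of the genes the same contrast ran in opposite directions at different ages or in different sexes, each by more than 2 technical SDs. These differences between contrasts were not tested, since each group has 1 array. For ovary over testis, the log2 ratio of Stra8 was 3.43 in fetal gonads, -1.24 in neonatal gonads and -1.75 in adult gonads, the last 2 being bounds with ovary at the floor. For Meioc it was 3.16 in fetal and -4.01 in adult gonads, both bounds. For Dazl it was 0.65 in fetal, -0.85 in neonatal and -3.75 in adult gonads. For neonatal over fetal gonads, the log2 ratio of Stra8 was -3.80 in ovary, a bound, and 0.87 in testis.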

How the results depend on the processing

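No paired analysis was possible because each group has 1 array, so that no groups compared share more than 1 replicate number. Of 154 recomputed counts of called genes (14 counts under 11 alternatives), 145 stayed within 1.5 times the count reported, and all 8 called ratios kept their sign under every alternative and their call under the 4 other scalings. The floor accounts for 5 of the 9 exceptions. With it at the 75th percentile, 342, called entry genes fell to 0 for fetal ovary over fetal testis, 0 for neonatal over fetal ovary, 0 for adult over neonatal ovary, 0 for adult over neonatal testis and 1 (Dazl) for adult ovary over adult testis, because more arrays lie at the floor. With scaling to the 9 hybridization controls, 3 genes were higher in adult than in neonatal testis (Stra8, Meioc and Ythdc2), and the median log2 ratio of all genes in that comparison was 0.65. The geometric mean of those controls was 441 in adult testis, 592 in neonatal ovary and 927 to 1152 elsewhere. That scaling called 4054 genes higher and 404 lower in adult testis. A limit of 2 gave 2 higher in adult than in neonatal testis (Meioc and Ythdc2) and 1 lower in neonatal ovary than in neonatal testis (Stra8), and a limit of 8 gave 0 lower in adult than in neonatal ovary. Of 315 recomputed log2 ratios of single genes, 68 moved by more than the technical SD and no called ratio reversed. The sign turned for 5 uncalled ratios, whose log2 ranges over the alternatives were -1.02 to 0.10 for Zglp1 in adult ovary over adult testis, -0.46 to 1.08 in adult over neonatal testis and -0.29 to 0.05 in neonatal over fetal testis, and -0.14 to 0.51 for Ythdc2 in adult over neonatal ovary and -0.06 to 0.77 in neonatal ovary over neonatal testis. Signals near the floor limit Zglp1, Ythdc2 and the dimmer Dazl probe set.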

Other observations

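Promoter windows of the prophase list were searched for the same motifs as those of the entry genes, as a description. Of 23 windows of 19 genes, 13 (56.5%) held the E2F6-type motif TCCCGC, against 20.0% of all windows, among them Smc1b, Stag3, Sycp1, Sycp3, Rec8 and Hormad1. The E-box CACGTG was in 7 (30.4%), against 7.15% of all windows, and the STRA8-MEIOSIN motif CNCCTCAG in 5 (21.7%), against 7.94%. The prophase windows had a median of 18 CpG dinucleotides, against 7 over all windows, and the part of base composition in these shares was not tested. Of the entry genes, Meioc shares the E2F6-type motif, Dazl the STRA8-MEIOSIN motif and Zglp1 the E-box, whereas the Stra8 window held none of these 3.

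On the spermatogonial list, 2 of 8 genes above the floor were called higher in neonatal than in fetal ovary and none lower (median log2 ratio 0.51), against 1.05% higher and 0.321% lower over all genes. The 2 were Uchl1, at 9.24-fold, and Sohlh1, a transcription factor of spermatogonia and early oocytes, at least 12.7-fold. Of the others, Kit was 3.88-fold higher, whereas Rhox13 was at least 3.19-fold and Gfra1 1.77-fold lower.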
